A study of Homo sapiens with 4 samples.

Results

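The genes that bring glucose into the cell and commit it to glycolysis were examined in human renal tubule cells treated with a HIF stabilizer. They were 10 of the 58288 genes in the expression tables and were taken by gene symbol. The set comprised 3 facilitative glucose transporters (*SLC2A1*, *SLC2A2* and *SLC2A3*), 3 hexokinases (*HK1*, *HK2* and *HK3*) and 4 genes of the PFKFB enzymes (*PFKFB1*, *PFKFB2*, *PFKFB3* and *PFKFB4*). The data were 2 lists of HIF1α ChIP-seq peaks and 2 RNA-seq expression tables from HK2 cells, an immortalized line of human proximal tubular epithelium. The cell line shares its name with the hexokinase gene *HK2*, which is written in italics. All 4 libraries came from cells given 50 µM FG-4592 (roxadustat) from a DMSO stock, which inhibits prolyl hydroxylases and so stabilizes HIFα proteins, and the study's methods give 6 h of treatment. No untreated library was analysed here, so levels and positions under FG-4592 are given and no change with treatment. The replicates were of 1 cell line and were not stated to be separate cultures, so an SD over n = 2 measures the spread between these libraries, which may be technical.

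Glucose crosses the plasma membrane through facilitative transporters of the SLC2A family and is then phosphorylated by a hexokinase, which keeps it in the cell as glucose 6-phosphate. The PFKFB enzymes make and break down fructose 2,6-bisphosphate, an allosteric activator of phosphofructokinase 1, and so set the pace of the next committed step. HIF1α, the oxygen-regulated subunit of the transcription factor HIF1, binds DNA at a short response element, and several isozyme genes of glucose entry are textbook targets of it.

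Replicate 1 of the ChIP-seq listed 9 peaks within 50 kb of the 10 genes, and all 9 held the core of the HIF response element, ACGTG or GCGTG on either strand, within 100 bp of the peak centre. A match is a description of the letters, and a palindromic CACGTG counts once on each strand. Over all 1661 replicate 1 peaks on the reference chromosomes the share with a core was 86.1%. The central 101 bases of these 9 peaks, around the midpoint of each listed peak, are shown as a description. Binding at these bases was not tested. They are read from GRCh37 5′ to 3′ on the strand of the gene named, with the cores in capitals, and none of them overlaps an exon of a protein-coding gene.
*SLC2A1* chr1:43406810-43406910 (- strand): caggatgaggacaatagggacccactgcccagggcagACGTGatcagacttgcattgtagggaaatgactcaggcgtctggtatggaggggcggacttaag
*SLC2A1* chr1:43423945-43424045 (- strand): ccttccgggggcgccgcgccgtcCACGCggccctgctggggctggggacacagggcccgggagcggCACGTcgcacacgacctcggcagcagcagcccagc
*SLC2A1* chr1:43428400-43428500 (- strand): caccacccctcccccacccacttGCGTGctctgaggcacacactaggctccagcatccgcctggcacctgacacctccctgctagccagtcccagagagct
*SLC2A3* chr12:8123370-8123470 (- strand): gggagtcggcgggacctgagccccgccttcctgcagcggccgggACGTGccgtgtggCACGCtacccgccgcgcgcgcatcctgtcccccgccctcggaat
*HK1* chr10:71078298-71078398 (+ strand): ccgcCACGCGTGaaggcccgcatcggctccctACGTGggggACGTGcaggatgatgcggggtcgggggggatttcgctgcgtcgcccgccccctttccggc
*HK2* chr2:75060947-75061047 (+ strand): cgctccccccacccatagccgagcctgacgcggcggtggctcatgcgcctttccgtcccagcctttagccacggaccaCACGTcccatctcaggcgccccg
*PFKFB3* chr10:6243565-6243665 (+ strand): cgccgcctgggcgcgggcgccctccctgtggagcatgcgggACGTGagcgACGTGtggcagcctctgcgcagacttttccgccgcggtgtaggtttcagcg
*PFKFB3* chr10:6341360-6341460 (+ strand): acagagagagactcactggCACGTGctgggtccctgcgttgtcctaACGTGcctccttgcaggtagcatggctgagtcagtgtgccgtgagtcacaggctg
*PFKFB4* chr3:48594657-48594757 (- strand): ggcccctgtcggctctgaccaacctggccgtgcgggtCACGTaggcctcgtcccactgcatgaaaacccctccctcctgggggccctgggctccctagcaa
The *HK1* window held 4 cores, 2 of which overlap, and the *PFKFB3* window upstream of its start held 2 cores on the strand of the gene, with 4 bases between them. The second *PFKFB3* window, beyond the end of the gene, held 3 matches, of which 2 are the same CACGTG read on both strands. The *PFKFB4* and *HK2* windows held 1 core each on the strand opposite the gene, and further cores of those peaks lay outside the printed bases.

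The RNA-seq tables showed an epithelial cell of renal type that had few markers of the differentiated proximal tubule. Of 8 markers of renal epithelium, 6 had a mean of at least 1 FPKM (fragments per kilobase of transcript, scaled to the mapped fragments of the library), with summed levels of 622 and 611 FPKM in replicates 1 and 2. *KRT19*, a keratin, was the most abundant of them at 184 and 177 FPKM, and *PAX8*, a transcription factor of the renal lineage, stood at 121 and 114 FPKM. Those under 1 FPKM were *PAX2*, at 0.287 and 0.359 FPKM, and the cadherin gene *CDH1*, at 0.211 and 0.379 FPKM. The cadherin gene *CDH2* was at 63.8 and 63.7 FPKM. Of 14 markers of the proximal tubule, 3 reached 1 FPKM, and the summed levels were 75.2 and 69.4 FPKM. *GGT1*, a brush border enzyme, made up most of that sum at 62.3 and 58.5 FPKM. The endocytic receptor gene *LRP2*, the transporters *SLC5A12*, *SLC22A6* and *SLC22A8* and the transcription factor gene *HNF4A* were listed at 0 in both libraries. The label of proximal tubular cells was thus met by most markers of renal epithelium, *PAX2* and *CDH1* apart, and by few markers of function. Markers of the loop of Henle and distal tubule (3 genes), the collecting duct (3), the podocyte (2), the endothelium (3) and liver or beta cells (2) were all under 1 FPKM. Of 4 fibroblast markers only *COL1A1* reached 1 FPKM, at 38.7 FPKM in each library, while *COL1A2* was at 0.0401 FPKM and listed at 0. Of 3 immune markers only *CD68*, a lysosomal protein gene, did so, at 33.6 and 31.5 FPKM, and the leukocyte genes *PTPRC* and *CD3E* were listed at 0.

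A single isozyme or a pair of isozymes carried most of the expression at each step. *SLC2A1* was the highest of the 10 genes and ranked at position 240 among all genes, followed by *HK1* (526), *PFKFB3* (1131), *PFKFB4* (1485), *HK2* (2878), *SLC2A3* (5128) and *PFKFB2* (7861). These 7 genes had a mean of at least 1 FPKM, against 23.1% of all genes. *SLC2A2* and *PFKFB1* were under 1 FPKM in both libraries, and *HK3* was listed at 0 in both. In the order of mean levels no neighbours overlapped between the 2 libraries, although 2 values per gene give that order little weight. Between the libraries none of the 7 genes differed by more than 2-fold. Of the 13467 genes with a mean of at least 1 FPKM, 13461 were above 0 in both libraries, and 2.12% of these did. The median difference of the 13461 was 0.14 on the log2 scale without regard to sign. In bulk RNA a level is an average over the culture, so fewer expressing cells and less RNA per cell cannot be told apart.

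**Figure D1:**
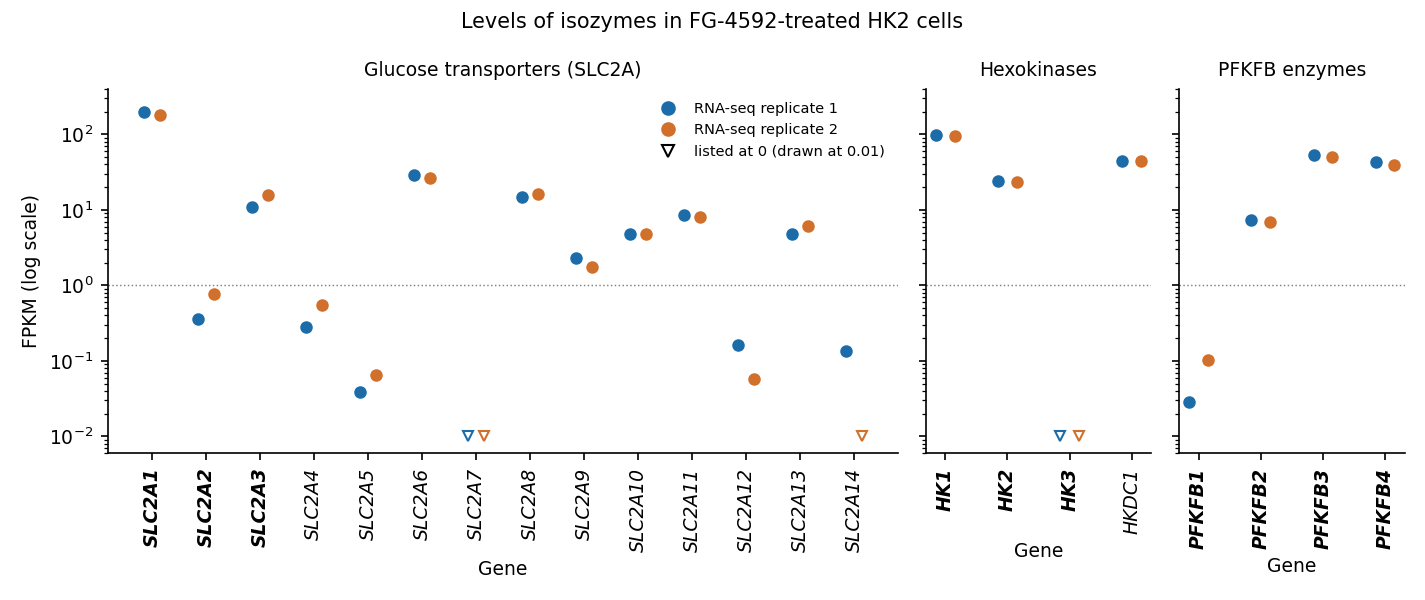
FPKM on a log scale of the 14 *SLC2A* transporters, 4 hexokinase genes and the 4 PFKFB enzymes in each of the 2 RNA-seq libraries, with the 10 genes of glucose entry in bold, open triangles for genes listed at 0 and a dotted line at 1 FPKM. *SLC2A1* stood above the other transporters at 196 and 184 FPKM, *HK1* above *HKDC1* and *HK2*, and *PFKFB3* and *PFKFB4* lay close together.

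HIF1α peaks lay near an annotated start of 5 of the 10 genes in each replicate, and 4 of the genes were the same. A gene was counted when a peak shared at least 1 bp with the 1 kb on either side of any of its annotated start sites. In replicate 1 these were *SLC2A1*, *HK1*, *HK2*, *PFKFB3* and *PFKFB4*, against 2.5% of the 55862 genes held by both annotations and 8.14% of those with a mean of at least 1 FPKM. In replicate 2 they were *SLC2A1*, *SLC2A3*, *HK2*, *PFKFB3* and *PFKFB4*, against 9.72% and 20.8%. Of these 5, *SLC2A3* was counted only through a peak on its last exon, 14537 bp from the leading start, where a short transcript begins. That transcript held 2.34% of the gene's FPKM in RNA-seq replicate 1 and was listed at 0 in RNA-seq replicate 2. The 4 genes found in both, *SLC2A1*, *HK2*, *PFKFB3* and *PFKFB4*, compared with 0.779% of all genes and 2.68% of those expressed at that level. A peak near the start that overlapped between the replicates was present at *PFKFB3* and *PFKFB4* only among the 10, against 0.439% of all genes. The same 4 genes were counted in both replicates with windows of 3 or 10 kb, and *PFKFB3* dropped out with 0.5 kb. With only the most upstream start site of each gene the counts were 2 in replicate 1, 2 in replicate 2 and 2 in both, *SLC2A1* and *HK2*, so the counts of the other genes rest on start sites further downstream.

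The replicate 2 list was longer, with 16953 peaks against 1689, and 23 of its peaks lay within 50 kb of the 10 genes. Within that distance 6 of the 10 genes had a replicate 1 peak and 7 had a replicate 2 peak, against 11.9% and 52.1% of all genes. Of the 9 replicate 1 peaks, 7 met no annotated exon of any gene, against 44.9% of all replicate 1 peaks on the reference chromosomes. Of the 9, 1 lay over exons for more than 50% of its length, against 31.8% of that list. Of the 23 replicate 2 peaks, 20 lay over exons for more than 50% of their length, much as in the whole list, where 80.9% did, and 11 of the 23 lay on exons of neighbouring genes and of none of the 10. Cores within 100 bp of the centre were found in 9 of the 23, against 26.6% of all 16648 replicate 2 peaks on the reference chromosomes. The count depended on the definition, with 15 of the 23 against 48.8% for a core anywhere in the peak and 3 against 8.25% for a core of 6 letters. Only 2 of the 23 met no exon, against 16.5% of the list, and these were the peaks at *PFKFB3* and *PFKFB4* that overlapped a replicate 1 peak. Both held cores, as did 6 of the 20 mostly exonic peaks. The peak lists held positions without scores, so no peak could be ranked by its strength, and the depth behind them is unknown.

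**Figure D2:**
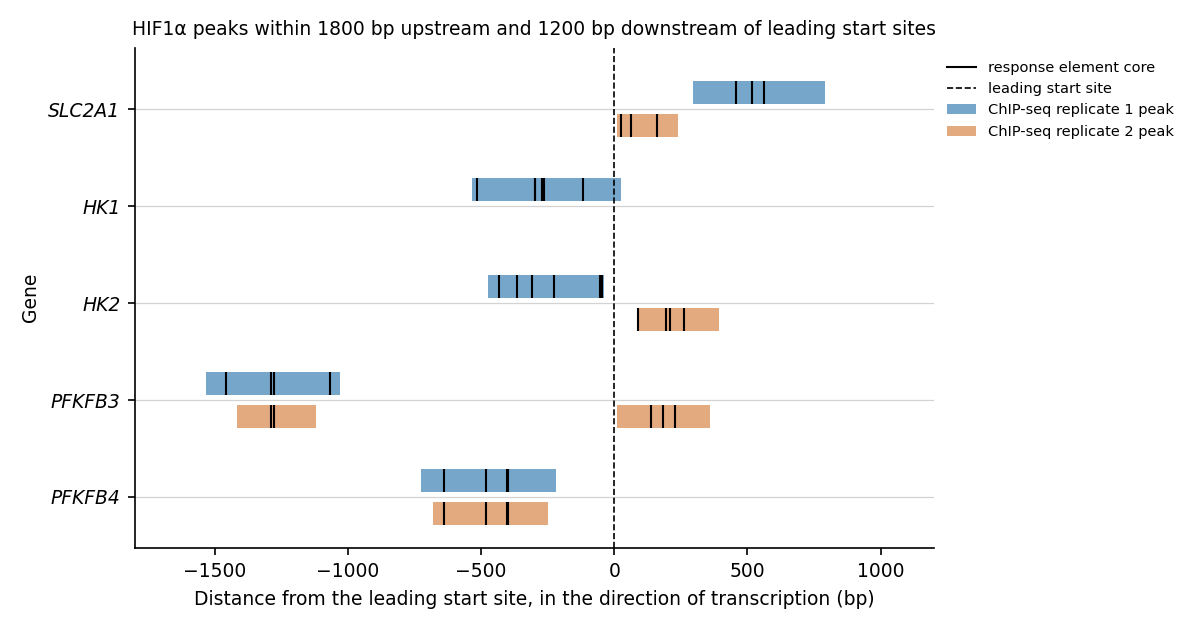
HIF1α peaks of replicate 1 (blue) and replicate 2 (orange) near the leading start site, as placed in GENCODE 44, of 5 genes, drawn as distance in bp from that site in the direction of transcription, with response element cores as black lines. The peaks of the 2 replicates coincided at *PFKFB4* and upstream of *PFKFB3*, and lay apart at *SLC2A1* and *HK2*, where the replicate 2 peak lay over exon 1, wholly at *HK2* and for 98.2% of its length at *SLC2A1*.

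*SLC2A1*, which encodes GLUT1, the transporter of basal glucose uptake in most cells, was measured at 196 and 184 FPKM (189.7 ± 8.79, SD, n = 2). It made up 72.2% and 69.5% of the summed FPKM of the 14 *SLC2A* genes. *SLC2A3*, which encodes the high-affinity transporter GLUT3, was at 10.8 and 15.9 FPKM (13.3 ± 3.59, SD, n = 2). The ratio of *SLC2A1* to *SLC2A3* was 4.18 and 3.53 on the log2 scale, 14.2-fold between the means, and far larger than the spread of either gene. *SLC2A3* was the least even of the 7 expressed genes. Its difference of 0.56 (log2, replicate 2 over replicate 1) was larger than that of 92.2% of expressed genes. *SLC2A2*, the GLUT2 transporter of liver, beta cells and the basolateral side of the proximal tubule, was at 0.362 and 0.780 FPKM. Of the 11 other *SLC2A* genes, 6 reached 1 FPKM. *SLC2A6* was the highest of these at 28.9 and 26.7 FPKM, above *SLC2A3* in both libraries, and *SLC2A8* stood at 14.6 and 16.1 FPKM, so that its range overlapped that of *SLC2A3*. *SLC2A4*, the insulin-responsive transporter gene, was under 1 FPKM at 0.285 and 0.550 FPKM, as was the fructose transporter gene *SLC2A5* at 0.0391 and 0.0648 FPKM. Among 5 sodium-glucose cotransporters only *SLC5A2*, the main apical glucose carrier of the proximal tubule, reached 1 FPKM, at 2.59 and 1.70 FPKM.

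By the FPKM assigned to its transcripts, *SLC2A1* started almost entirely at 1 annotated site or just downstream of it. Start sites were the 5′ ends of the annotated transcripts, joined within 100 bp, and the share of a site is the FPKM of its transcripts out of that of the gene. The site of ENST00000426263 (GRCh38 chr1 position 42959173) held 93.8% and 91.8% of *SLC2A1*, and a cluster of 6 shorter transcripts just downstream held 6.08% and 8.15%. Of the 4 annotated sites the other 2 each held less than 0.1% in both libraries. None of the 4 had a first exon of its own, so first-exon coverage could not check these shares. By transcript class, protein-coding transcripts made up 95.8% and 93.3% of the *SLC2A1* level. For *SLC2A3* the leading site held 91.0% and 96.2%, but the transcripts were of several classes. Over the whole gene ENST00000075120, which encodes the protein, took 62.8% and 67.9%, and 7 transcripts with a retained intron, 4 of which start at the leading site, took 29.6% and 30.02%.

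Distances from peaks to starts use GENCODE 44 on GRCh37, while the expression tables use GENCODE 27 on GRCh38, and positions were not converted between the builds. Of the 99 transcripts of the 10 genes 97 were present in GENCODE 44, 79 of them in the same version, but the leading transcript of each of the 7 expressed genes carried a newer version. Its start in the 2 releases was compared by its spacing to same-version transcripts of the gene within each build. The GENCODE 27 start lay further upstream by 305 bp at *SLC2A1*, 146 bp at *HK2*, 88 bp at *SLC2A3* and 87 bp at *PFKFB4*, and by 15, 3 and 1 bp at *PFKFB2*, *HK1* and *PFKFB3*. Distances given from the leading start of *SLC2A1*, *HK2*, *SLC2A3* and *PFKFB4* are therefore those to the GENCODE 44 start and would differ by that much from the start used for FPKM.

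The nearest HIF1α peaks at *SLC2A1* (GRCh37 chr1:43391024-43424564, minus strand) lay just inside the gene, next to each other. The replicate 1 peak at chr1:43423747-43424244 was in the first intron, with its centre 544 bp downstream of the leading start and 3 cores at 459, 519 and 562 bp from that start. The replicate 2 peak at chr1:43424301-43424527 lay over exon 1 for 98.2% of its length, 57 bp away from the replicate 1 peak, with other cores at 27, 62 and 162 bp. The 2 peaks therefore shared no base and no core. Replicate 1 had a pair of further peaks without a counterpart in replicate 2. One was at chr1:43406717-43407003, in an intron 17679 bp downstream of the leading start. The other was at chr1:43428256-43428644, 3911 bp upstream of the start and within the span of the divergent transcript *SLC2A1-DT* but on none of its exons. Each held 1 core, 11 and 25 bp from its centre. The remaining replicate 2 peaks lay on the last exon of *SLC2A1* (chr1:43391974-43392904, no core) and on exons of 2 other genes, among them the pseudogene *ATP6V1E1P1*.

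At *SLC2A3* (GRCh37 chr12:8071826-8171603, minus strand) no peak of either replicate lay within 1 kb of the leading start at position 8088783. The replicate 1 peak at chr12:8123198-8123642 was centred 34637 bp upstream of that start, inside an intron of longer annotated transcripts of the gene, with cores 4 and 9 bp from its centre. The replicate 2 peak at chr12:8071905-8074246 was 2342 bp wide and covered the last exon. It counted as a promoter peak because the short transcript ENST00000543435 begins within that exon. This transcript held 2.34% of the gene's FPKM in RNA-seq replicate 1 and was listed at 0 in RNA-seq replicate 2. None of the 6 cores in that peak lay within 100 bp of its centre. *SLC2A2* had no peak within 50 kb in either replicate, and the nearest peaks were 3415 kb and 166 kb from its start.

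The hexokinases differed by several fold in level. *HK1*, the constitutive isozyme of most tissues, was at 98.6 and 95.2 FPKM (96.9 ± 2.46, SD, n = 2). *HK2*, the inducible isozyme of muscle, fat and tumour cells, was at 23.9 and 23.6 FPKM (23.7 ± 0.183, SD, n = 2). *HK1* exceeded *HK2* by 2.05 and 2.01 on the log2 scale, 4.08-fold between the means. By coverage times length over exon length the mean ratio was 1.33 on the log2 scale, so its size depended on the measure while its direction did not. The gene between them in level was *HKDC1*, which encodes a hexokinase domain protein, at 44.01 and 44.70 FPKM. It exceeded *HK2* by 0.88 and 0.92 on the log2 scale and lay below *HK1* by 1.16 and 1.09. Of the summed FPKM of *HK1*, *HK2*, *HK3* and *HKDC1*, *HK1* made up 59.2% and 58.2%, *HKDC1* 26.4% and 27.3% and *HK2* 14.3% and 14.4%. *HK3*, expressed mainly in myeloid cells, was listed at 0 for all 6 of its transcripts. *ADPGK*, which encodes a glucose kinase that uses ADP in place of ATP, was at 20.6 and 16.3 FPKM.

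The estimate of the *HK1* start sites depended on which part of the transcripts was read. By FPKM the site of ENST00000359426 (GRCh38 chr10 position 69318844) held 83.7% and 82.7% of the gene, and the site of ENST00000298649, 3062 bp upstream in GENCODE 44, held 12.1% and 14.1%. The first exon tells these transcripts apart, since most later exons are shared. The first exon of ENST00000359426 had a mean coverage of 399 and 383 reads per base, 52.7% and 55.1% of the median exon. That of ENST00000298649 had 2.80 and 6.25 reads per base. By coverage of first exons, a measure chosen after seeing the data, the leading site held 98.1% ± 0.571 (SD, n = 2). The sites furthest upstream, near GRCh37 position 71029761, had 8 transcripts and 0.00882% and 0.169% of the FPKM, and the first exon there had a coverage of 0 in both libraries. For *HK2*, ENST00000290573 held 96.2% and 98.7% of the FPKM and a transcript starting 1043 bp downstream in GENCODE 44 (ENST00000409174) held 3.76% and 1.26%. The first exons of these transcripts had a coverage of 123 and 94.9 against 5.20 and 2.99 reads per base.

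At *HK1* (GRCh37 chr10:71029740-71161640, plus strand) the replicate 1 peak at chr10:71078069-71078628 covered the leading start itself, at position 71078603. Its centre was 255 bp upstream and it held 6 cores, 4 of them within 100 bp of the centre. The same peak was 2528 bp from the start of ENST00000298649 and 48308 bp from the far upstream starts, none of which had a peak of either replicate within 1 kb. Replicate 2 had no peak there. Its only peak within 50 kb of *HK1*, at chr10:71160802-71161550, lay in exon 18, the last. *HKDC1* lies 2432 bp from *HK1* and had no promoter peak in either replicate.

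At *HK2* (GRCh37 chr2:75061254-75120486, plus strand) the peaks of the 2 replicates stood on either side of the GENCODE 44 start. The replicate 1 peak at chr2:75060780-75061215 ended 39 bp before that start, at position 75061254, and held 6 cores. The GENCODE 27 start, 146 bp further upstream by its spacing to ENST00000409174, falls within the span of the replicate 1 peak. For 76.8% of its length it lay over exons of *HK2-DT*, a non-coding transcript that runs the other way. The replicate 2 peak at chr2:75061339-75061648 was wholly inside exon 1 of *HK2*, 124 bp from the replicate 1 peak, with 4 cores, 3 of them within 100 bp of the centre. A pair of further replicate 2 peaks, at chr2:75118064-75118437 and chr2:75119086-75120000, lay in exon 18, the last, and held no core. *HK3* had no peak within 50 kb in either replicate, with the nearest 533 kb and 241 kb from its start.

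*PFKFB3* and *PFKFB4* made up most of the PFKFB expression, and *PFKFB2* was expressed at a lower level. *PFKFB3*, whose enzyme has a high ratio of kinase to phosphatase activity, was at 53.4 and 50.1 FPKM (51.7 ± 2.32, SD, n = 2). *PFKFB4*, known as the testis isozyme, was at 42.7 and 39.6 FPKM (41.2 ± 2.19, SD, n = 2). The difference of 0.32 and 0.34 on the log2 scale was of the same direction in both libraries and amounted to 1.26-fold between the means. By the median coverage over exons, chosen after seeing the data, it was 1.31 and 1.32 on the log2 scale, so the order held and its size did not. *PFKFB2*, the heart isozyme, was at 7.31 and 6.88 FPKM (7.09 ± 0.306, SD, n = 2). *PFKFB1*, the isozyme of liver and muscle, was at 0.0281 and 0.102 FPKM, and its annotated first exon had a coverage of 0. Of the summed FPKM of the 4 genes *PFKFB3* made up 51.6% and 51.8%, *PFKFB4* 41.3% and 41.0% and *PFKFB2* 7.07% and 7.11%. These 3 shares varied less between the libraries than the levels themselves.

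*PFKFB3* and *PFKFB4* each had 7 annotated start sites, of which 5 and 6 had a mean of at least 0.1 FPKM. The leading *PFKFB3* site (ENST00000379775, GRCh38 chr10 position 6202931, with 11 transcripts) held 85.2% and 81.1% of the FPKM. The most upstream site, that of ENST00000379789 57998 bp away, held 3.14% and 3.83%. Its own first exon had a coverage of 28.2 and 34.6 reads per base, against 659.7 and 516 at the leading site. Sites of short transcripts 18472, 19776 and 21234 bp downstream held 4.30% and 5.41%, 3.34% and 5.50%, and 4.01% and 4.04%. For *PFKFB4* the leading site (ENST00000232375, GRCh38 chr3 position 48556890) held 91.7% and 88.8%, and the most upstream one, 5169 bp away, held 2.37% and 5.02%. Their first-exon coverage was 124 and 101 against 6.98 and 13.3 reads per base. The first exon of the leading *PFKFB4* site was at only 51.9% and 49.8% of the median exon. *PFKFB2* started at ENST00000367080 and its close neighbours for 94.9% and 96.0% of its FPKM, a share that fell to a mean of 59.8% with starts joined within 10 bp in place of 100 bp. The first exon there had a coverage of 4.29 and 9.97 reads per base, only 8.73% and 24.8% of the median exon, and that of transcripts 18909 bp upstream had 0 in both libraries.

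**Figure D3:**
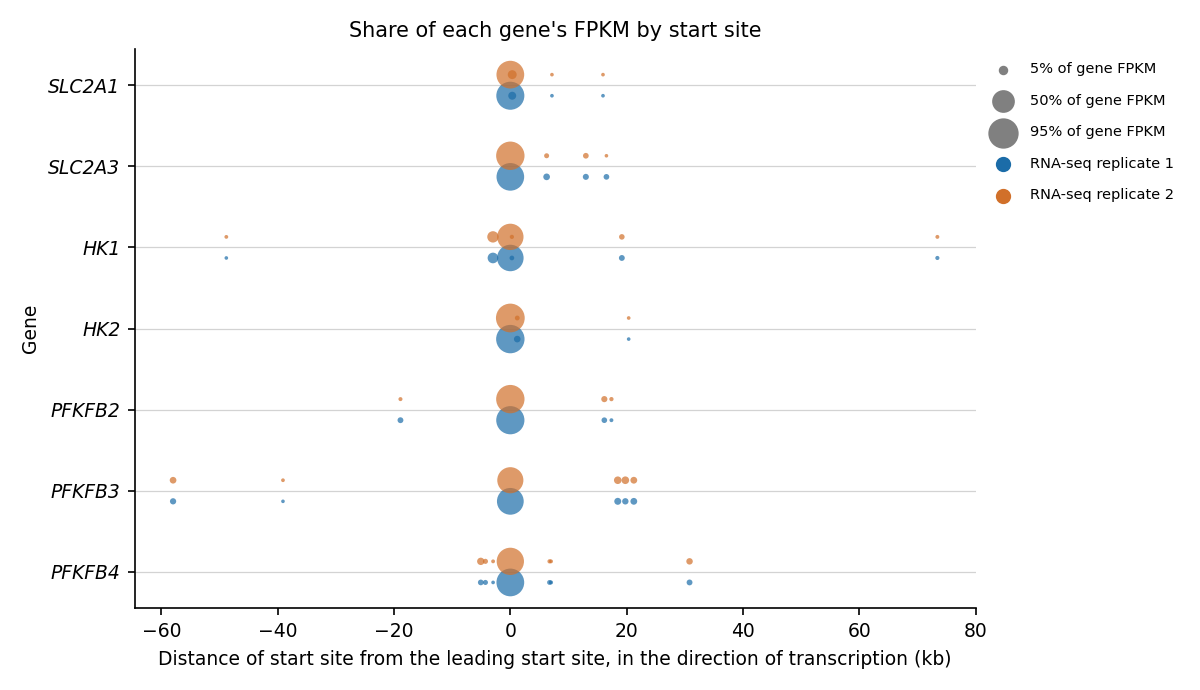
Start sites of the 7 expressed genes, placed by distance in kb from the leading site in the direction of transcription, with the area of each circle for the share of the gene's FPKM in replicate 1 (blue) and replicate 2 (orange). A single large circle at 0 marks each gene, the next largest being the *HK1* site 3 kb upstream, and *PFKFB3* and *PFKFB4* have several small ones.

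At *PFKFB3* (GRCh37 chr10:6186897-6296607, plus strand) a peak found in both replicates lay upstream of the leading start at position 6244895. It was listed at chr10:6243363-6243867 in replicate 1 and at chr10:6243479-6243775 in replicate 2, with centres 1280 and 1268 bp upstream and a shared pair of cores at 1287 and 1278 bp upstream. No annotated exon overlapped it. The replicate 1 peak reached to 962 bp from the nearest annotated start of the gene, and the replicate 2 peak to 1054 bp, so the promoter count for replicate 2 rested on another peak. That peak, at chr10:6244904-6245254, began 9 bp inside exon 1 and held 3 cores, the nearest 1 bp from its centre. Replicate 1 also had a peak 44642 bp beyond the end of the gene (chr10:6341249-6341571, in an intron of *LINC02649*), which replicate 2 did not. The other replicate 2 peaks were on the last exon of *PFKFB3* (chr10:6274954-6277348, 2395 bp wide, with no core within 100 bp of its centre) and on *RBM17*. The far upstream start had no peak within 1 kb.

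*PFKFB4* (GRCh37 chr3:48555117-48599448, minus strand) had the closest match between the replicates. The peak at chr3:48594454-48594961 in replicate 1 and chr3:48594484-48594916 in replicate 2 had centres 7 bp apart, 471 and 464 bp upstream of the leading start at position 48594236. The same 4 cores, at 640, 482, 403 and 400 bp upstream, lay in both, and no annotated exon overlapped either peak. The sites further upstream at *PFKFB4* lay 2326 bp or more from the replicate 1 peak. Replicate 2 had 3 further peaks within 50 kb, on the last exon of *PFKFB4* (chr3:48555608-48557148) and on exons of *SHISA5* and *UQCRC1*. *PFKFB2* had no peak within 50 kb, the nearest being 753 kb and 319 kb from its leading start. The 4 replicate 2 peaks within 50 kb of *PFKFB1* all lay on exons of its neighbour *TRO*, and replicate 1 had none.

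The promoter tables of RefSeq (GRCh38.p14) gave another view of the same starts, with 250 bases before and 50 after each. They held 17 entries for 8 of the 10 genes, and none for *SLC2A3* and *PFKFB2*. A core was present in 8 of the 17, close to the 48.4% of all 35116 entries, so the count does not set these genes apart. The 8 were at *SLC2A1*, *HK1*, *HK2*, *PFKFB3* and *PFKFB4*. The entries of *SLC2A2*, *HK3* and *PFKFB1* held none, which says only that these letters are not in those 300 bases. *HK2* had the most cores, 6 in 1 entry, and *HK1* had a core in 2 of its 7 entries.

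The last exon was under 50% of the median coverage of the other exons at 4 of the 7 expressed genes in each library, close to the 45.9% and 44.8% found among 7769 transcripts. The shares here use the coverage that the tables assign to the leading transcript alone. In the leading transcript of *PFKFB3* the last exon, 2638 bases long, had 5.54% and 5.83% of the median coverage of the other exons. The share was 14.6% and 13.7% at *HK1* and 19.7% and 20.1% at *SLC2A1*. At *HK2* it was 80.3% and 88.1%, at *PFKFB2* 80.4% and 85.9% and at *PFKFB4* 100.1% and 105.4%. FPKM is averaged over the whole transcript, the last exon included. The part of the last exon in the FPKM ratio of *PFKFB3* to *PFKFB4* was not tested. *SLC2A3* was the only one of the 7 where the libraries differed by more than 2-fold, with 2.11% in replicate 1 and 44.5% in replicate 2, against 16.1% of the 7761 transcripts with coverage of the last exon in both. With coverage summed over all transcripts that share an exon, the *PFKFB2* share was lower, at 47.5% and 50.2%, which puts 5 of the 7 under 50% in replicate 1, and that of *SLC2A3* was 3.16% and 46.4%. By the summed coverage some exons before the last were low too. Exon 2 of *SLC2A1* had 444 and 382 reads per base, level with its last exon at 431 and 391. Exon 2 of *HK2* was at 24.5% and 20.4% of the median and exon 9 of *PFKFB4* at 22.7% and 25.4%. Exon 9 of *PFKFB3* was at 18.2% and 20.1%. At *HK1*, exon 15 was at 20.5% and 22.2% and exon 8 at 26.9% and 24.4%, beside the last exon at 14.9% and 14.5%.

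Among the exons of *SLC2A3*, coverage differed most between the libraries at the last. Summed over the transcripts that share each exon, the median coverage of exons 1 to 9 was 126 and 119 reads per base, a difference of -0.08 on the log2 scale. The last exon, 2402 bases long, had 3.98 and 55.2 reads per base, a difference of 3.79. By the median exon coverage the ratio of *SLC2A1* to *SLC2A3* was 4.11 and 4.0 on the log2 scale, closer between the libraries than by FPKM. The part of the last exon in the *SLC2A3* difference was not tested. At *PFKFB4* a single internal exon, exon 7 of 122 bases, had 282 and 11.6 reads per base, while its neighbours, exons 6 and 8, had 271 and 230.1 and 234 and 203.

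**Figure D4:**
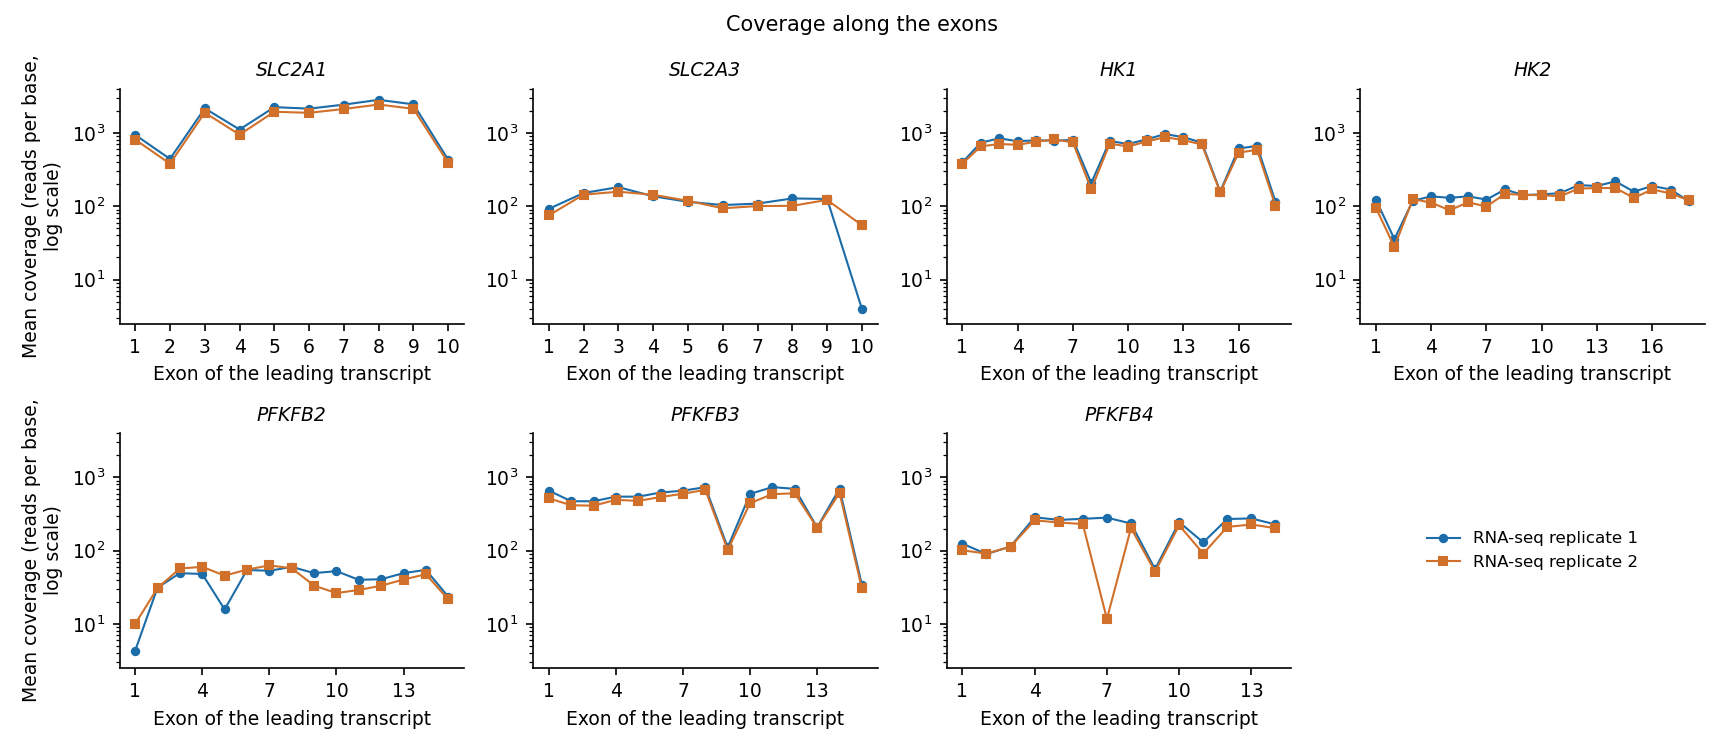
Mean coverage in reads per base, summed over transcripts that share the exon and on a log scale, of each exon of the leading transcript of the 7 expressed genes in the 2 RNA-seq libraries, numbered in the direction of transcription. The libraries differed by more than 2-fold at exon 10 of *SLC2A3* (3.98 and 55.2), exon 7 of *PFKFB4* (282 and 11.6) and exons 1 (4.29 and 9.97) and 5 (15.7 and 45.5) of *PFKFB2* and at no other exon. The last exon was lower than the one before it in both libraries at all 7 genes, least so at *HK2* and *PFKFB4*.

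Replicate 2 peaks sat on the last exon of 6 of the 10 genes, *SLC2A1*, *SLC2A3*, *HK1*, *HK2*, *PFKFB3* and *PFKFB4*, and replicate 1 peaks on none. These 6 were the genes with a mean of at least 10 FPKM. In the series as a whole 29.5% of 19560 protein-coding genes had a replicate 2 peak on the last exon, and 0.286% had one of replicate 1. Among protein-coding genes with a mean of at least 1 FPKM the replicate 2 share was 44.2%. It was 4.71% for genes listed at 0, 36.7% between 5 and 10 FPKM, the class of *PFKFB2*, 54.5% between 10 and 30 FPKM, the class of *SLC2A3* and *HK2*, and 68.3% between 30 and 100 FPKM, the class of *HK1*, *PFKFB3* and *PFKFB4*. The part of RNA level in the replicate 2 peaks of these genes was not tested. Replicate 1 peaks at the same genes showed no such position, and the *PFKFB3* and *PFKFB4* peaks found in both lists lay outside exons.

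**Figure D5:**
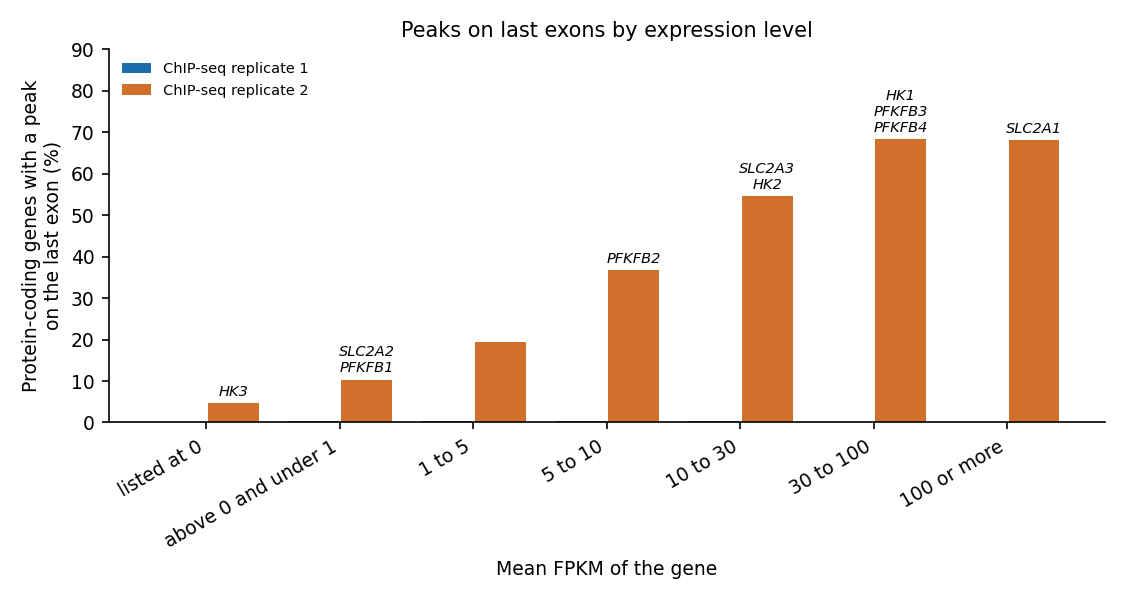
Percent of protein-coding genes with a HIF1α peak on the last exon, by class of mean FPKM, for ChIP-seq replicate 1 (blue, 0.476% or less in every class and hardly visible) and replicate 2 (orange), with the 10 genes of glucose entry written above their class. The replicate 2 share goes from 4.71% in genes listed at 0 to 68.0% in genes at 100 FPKM or more, the class of *SLC2A1*.

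Near copies and overlapping genes limit some of these levels, since the counting is not stated to use strand. *SLC2A14*, a near copy of *SLC2A3* that lies 28082 bp from it, matched 86.9% of the *SLC2A3* transcript at 96.1% identity, so reads could be split between them, and *SLC2A3* is uncertain to that extent. *SLC2A14* was at 0.134 FPKM and listed at 0. The hexokinase transcripts were further apart, with 72.7% identity over 75.8% of *HK1* when matched to *HK2*. The antisense gene *SLC2A1-AS1* was at 0.528 and 0.246 FPKM, and *AC019069.1*, antisense to *HK2*, at 1.57 and 1.55 FPKM. *YOD1*, which overlaps *PFKFB2* on the other strand, was at 12 and 14.7 FPKM, above *PFKFB2* itself, so the *PFKFB2* level is uncertain. *UCN2*, which overlaps *PFKFB4* on the same strand, was at 4.26 and 4.06 FPKM.

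The genes around glucose entry were expressed in part. At the fructose 6-phosphate step 5 of 7 reached 1 FPKM. The phosphofructokinase genes *PFKP*, at 244 and 247 FPKM, and *PFKL*, at 108 and 107 FPKM, encode enzymes that fructose 2,6-bisphosphate activates, and *GPI*, the isomerase before them, was at 173 and 172 FPKM. The opposing enzyme gene *FBP1*, characteristic of the gluconeogenic proximal tubule, was listed at 0. Of 6 genes of glucose 6-phosphate release and gluconeogenesis 3 reached 1 FPKM, *G6PC3*, *SLC37A4* and *PCK2*, of which *PCK2* acts further back, in making phosphoenolpyruvate. The glucose 6-phosphatase gene *G6PC* was listed at 0 while its ubiquitous relative *G6PC3* was at 34.4 and 32.8 FPKM. Of 6 genes of transporter control 5 reached 1 FPKM, led by *TXNIP*, an arrestin that promotes the internalization of GLUT1, at 153 and 159 FPKM. Promoter peaks in replicate 1, replicate 2 and both were found at 4, 2 and 2 of the 7 genes of the fructose 6-phosphate step, with *GPI* and *PFKP* in both. They were found at 1, 1 and 1 of the 11 other transporters (*SLC2A13*), at 1, 1 and 0 of the 6 genes of transporter control and at 0, 1 and 0 of the 6 genes of glucose 6-phosphate release and gluconeogenesis, the 1 being *PCK2*. Of the 5 sodium-glucose cotransporters only *SLC5A2* had one, in replicate 2, and *ADPGK* had one in replicate 1. Over all genes the shares were 2.5%, 9.72% and 0.779%, and among those with a mean of at least 1 FPKM 8.14%, 20.8% and 2.68%, so a single gene with a replicate 2 peak in lists of this size is near what all genes show.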

How the data were processed

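The 10 genes and all gene lists were chosen with earlier results of these data known. The text names those genes, the listed pathway and marker genes, overlapping, antisense and near-copy genes, genes at peaks, and leading transcripts or those that start at peaks. Some listed genes are not reported here. For ChIP-seq, the authors used Bowtie2 on hg19 with uniquely mapped reads, and MACS2 for each replicate. Versions, threshold and control library are not given in the sources used here, and the lists hold positions only. For RNA-seq, the authors used HISAT2 and StringTie 1.3.3 with GENCODE 27. Their deposited tables give FPKM, TPM and coverage of each transcript and coverage of each exon, with no read counts. The methods name hg19, but the coordinates are those of GRCh38.

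FPKM was summed per gene and per start site. Depth, as coverage times transcript length, was 4442 and 4202 Mb. Peaks were compared with GENCODE 44 mapped to GRCh37 and joined by Ensembl identifier. Last exons were compared in transcripts with at least 4 exons and a mean of 5 FPKM or more. Near copies were aligned with blastn 2.17.0 (e-value at most 1e-10). Python 3.11.15, numpy 2.4.6, pandas 2.3.3, pysam 0.24.0, samtools 1.23.1 and matplotlib 3.10.9 were used, and functions were tested on simulated data. With 1 condition and 2 libraries of each kind no test was made. Alternatives were TPM, coverage, the largest or protein-coding transcripts, a pseudocount, other minimums, windows and distances, and leaving out each replicate.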

Additional observations from a re-analysis of the deposited data

How the results depend on the processing

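Of 102 alternatives, 23 could not have differed and say nothing of stability: with n = 2 a left-out replicate always lies within 1 SD of a mean (20), and TPM leaves ratios as they are (3). Of the other 79, 48 gave a value within 1 SD of the libraries or, for counts, within 1.5 times the count reported, and 31 moved further. No log2 ratio changed direction. The log2 ratio of *HK1* to *HK2* (2.03) was 1.33 by coverage times length over exon length, 1.80 for the largest transcript, 1.98 for protein-coding transcripts, 1.98 with a pseudocount of 1 and 2.38 by median exon coverage. That of *SLC2A1* to *SLC2A3* (3.86) was 4.36 for the largest transcript. That of *PFKFB3* to *PFKFB4* (0.33) was 0.63, 0.29, 0.40 and 1.31 by coverage times length, largest transcript, protein-coding transcripts and median exon coverage. The cause was not tested. With the first start site only, promoter peaks were counted at 2 genes in replicate 1, 2 in replicate 2 and 2 in both, and with overlapping peaks at 2. Of 26 such alternatives for the share at the leading start site, 11 stayed within 1 SD, and the share lay between 59.8% (*PFKFB2*) and 99.9% (*SLC2A1*), with *SLC2A3* at 65.4% when starts were joined within 10 bp. Among the 79, 8 were chosen after seeing the data. No paired analysis was possible because all libraries were of 1 condition and no test was made. With 2 libraries an SD is imprecise, and read depth behind single values and peaks is unknown.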
